A study of Mus musculus with 74 samples.

Results

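The genes described here are 10 immediate early and heat shock genes of the mouse: Fos, Fosb, Jun, Junb, Jund, Egr1, Ier2, Dusp1, Hspa1a and Hspa1b. They were chosen by name, as genes linked to tissue dissociation, from the 49912 genes of the deposited count table, and all 10 passed the filter on low counts in both cell fractions. The study fed mice of genotype Trem2 +/+ (WT), Trem2 +/- (Het) or Trem2 -/- (KO) either control chow or chow with 0.2% cuprizone, a copper chelator that kills myelin-forming oligodendrocytes. Feeding lasted 5 weeks, for acute demyelination, or 12 weeks, for chronic demyelination. Whole brains of 37 mice were dissociated, live cells were sorted into a Cd11b+ pool (the microglia fraction) and a pool of every other live cell (the nonmicroglia fraction), and 3′ tags of polyadenylated RNA were counted in 74 libraries, 1 of each pool per mouse.

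At 5 weeks every genotype had 3 control and 3 cuprizone mice. At 12 weeks there were 2 WT, 4 Het and 3 KO mice on control diet and 3 WT, 4 Het and 3 KO mice on cuprizone. The mice were 25 females and 12 males, with both sexes in each group, and no source used here states their ages. The labels name no promoter or Cre and no cell type to which the deletion is limited. Cd11b is on all myeloid cells, so the microglia fraction can hold neutrophils, monocytes and border macrophages. Replicates were separate animals. Mice fed for 5 and for 12 weeks were different animals, so time on diet and the cohort cannot be told apart.

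Immediate early genes are switched on within minutes of a stimulus by factors already present in the cell, with no new protein needed. Fos, Fosb, Jun, Junb and Jund encode the subunits that pair into AP-1, a transcription factor that turns on later genes. Egr1 is a zinc finger transcription factor, Ier2 a small nuclear protein, and Dusp1 a phosphatase that switches off the MAP kinases that induce the others. Hspa1a and Hspa1b encode the inducible HSP70 chaperone and are switched on by the heat shock factor HSF1 when proteins misfold. In microglia these genes are also known to come on while a brain is being dissociated, and the part of handling in the levels measured here was not tested.

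Promoter sequences of the members were searched for short motifs, while binding and promoter activity were not measured. Those of Jun, Fos, Dusp1 and Hspa1a are given because the results turn on Jun and the other 3 stand for the other roles. Of the 10 members, 8 had an entry in the RefSeq promoter table (GRCm38.p6), and none was found there for Ier2 or Egr1. Each line is the 150 bases before the start site, 5′ to 3′ on the gene's own strand. Capitals mark matches to the motifs searched.
Jun promoter, chr4:95052223-95052372, minus strand: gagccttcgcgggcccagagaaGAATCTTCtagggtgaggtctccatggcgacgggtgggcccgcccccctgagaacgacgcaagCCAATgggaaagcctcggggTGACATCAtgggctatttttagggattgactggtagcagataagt
Fos promoter, chr12:85473740-85473889, plus strand: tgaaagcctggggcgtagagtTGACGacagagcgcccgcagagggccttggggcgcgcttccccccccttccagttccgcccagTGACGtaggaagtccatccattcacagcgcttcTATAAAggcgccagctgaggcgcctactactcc
Dusp1 promoter, chr17:26508473-26508622, minus strand: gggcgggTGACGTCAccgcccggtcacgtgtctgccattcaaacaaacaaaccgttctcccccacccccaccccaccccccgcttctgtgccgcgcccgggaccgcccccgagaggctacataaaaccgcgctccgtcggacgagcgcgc
Hspa1a promoter, chr17:34972157-34972306, minus strand: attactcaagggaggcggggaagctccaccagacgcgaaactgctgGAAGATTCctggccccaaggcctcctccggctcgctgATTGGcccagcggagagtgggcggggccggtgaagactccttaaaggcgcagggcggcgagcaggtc

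The motifs were searched on both strands in the 250 bases before the start site of the members and of all 32851 promoters of the table. The Jun promoter holds TGACATCA from 45 to 38 bases upstream, a variant AP-1 element found in 2.93% of all promoters, and CCAAT from 65 to 61 bases upstream. CCAAT also stands in Junb, 36 to 32 bases upstream, and on the other strand in Hspa1a and Hspa1b, 67 to 63 bases upstream, and in 33.8% of all promoters. The full cAMP response element TGACGTCA stands in the Dusp1 promoter, 143 to 136 bases upstream, and in 1.55% of all promoters. The shorter TGACG, which lies inside the full element on both strands, had 2 matches in Fos, 1 each in Fosb and Junb and 1 more in Dusp1, and stood in 17.8% of all promoters. TATAAA was found in Fos, 33 to 28 bases upstream (12.4% of promoters). GAANNTTC, the core of the heat shock element, was found in Hspa1a and Hspa1b, 104 to 97 bases upstream, and also in Jun, 128 to 121 bases upstream, against 6.69% of all promoters. The AP-1 motif TGANTCA, in 6.75% of all promoters, was not in these windows of the 8 members. The Hspa1a and Hspa1b promoters differed at 3 of 250 bases.

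On GRCm38, Jun lies at chr4:95049036-95052222 and Fos at chr12:85473890-85477274. Dusp1 (chr17:26505591-26508472), Hspa1b (chr17:34956429-34959238) and Hspa1a (chr17:34969359-34972156) share a chromosome, and the HSP70 genes are neighbours. The transcripts of Hspa1a and Hspa1b were 84.3% identical over their whole length but 50.1% identical over the last 300 bases, where 3′ tags fall. How reads that match both copies were counted is not stated in any source used here, so the split between Hspa1a and Hspa1b is uncertain. Antisense genes overlap Jun (Junos) and Jund (Gm11175), and Gm20481 overlaps Hspa1a. The libraries keep strand, but no source used here states the strand setting of the counting, so reads of a gene and its antisense partner cannot be told apart.

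Library totals ran from 1043961 to 3945694 counts in microglia and from 1255465 to 3441041 in nonmicroglia, so members of the microglia fraction rested on 33 to 35023 counts per library. Trem2 itself was at a median of 891 CPM (counts divided by the library total, times 1000000) in 11 WT microglia libraries, 457 in 14 Het and 157 in 12 KO libraries, and the KO range (109 to 250 CPM) lay below the lowest WT library (418 CPM). Tags read the 3′ end of a transcript, and no source used here states which part of Trem2 is deleted. The 8 microglia markers summed to 15490 to 39480 CPM in the microglia fraction and to 322 to 769 CPM in the nonmicroglia fraction. Markers of other cells were also present in the microglia fraction: 9 neutrophil markers summed to 106 to 8077 CPM, 8 border macrophage markers to 273 to 1648 CPM and 9 mature oligodendrocyte markers to 275 to 1386 CPM. In the nonmicroglia fraction the oligodendrocyte markers summed to 6988 to 48290 CPM, and of all marker genes only Cd79a, a B cell gene, had no read in that fraction. Together the members took 1.38 to 3.81% of all counts in microglia libraries and 0.147 to 0.365% in nonmicroglia libraries.

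All 10 members were higher in the microglia fraction than in the other brain cells of the same mice. The difference was largest for Junb and smallest for the HSP70 pair. The plot of every library shows the gap and the spread within each fraction.

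**Figure D1:**
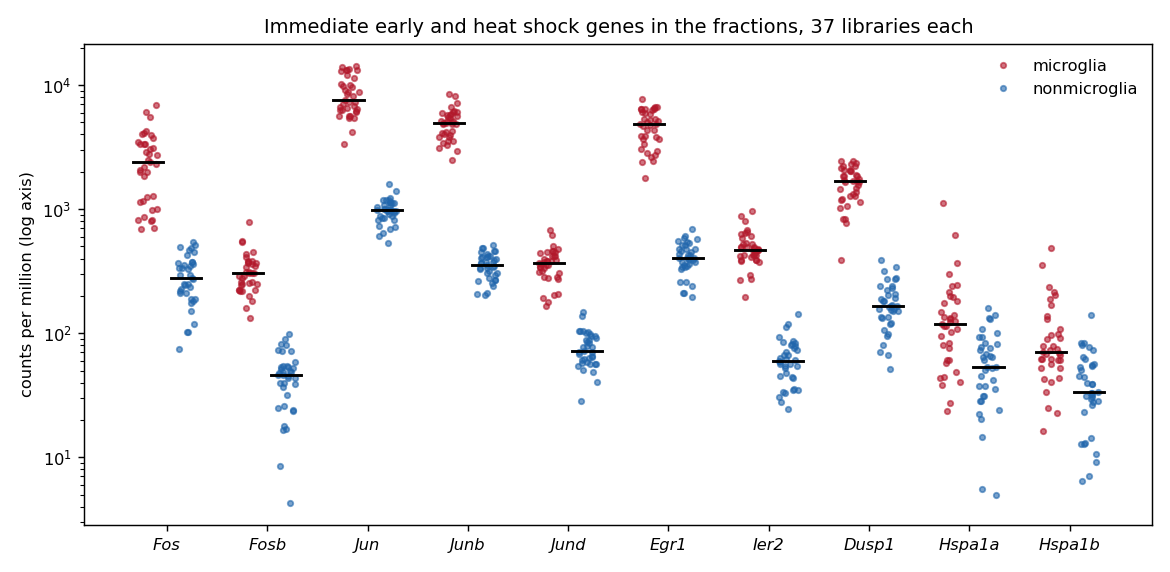
CPM of each gene on a log axis, in 37 microglia and 37 nonmicroglia libraries (1 point per library, bar at the median). The fractions are furthest apart for Junb and Egr1 and overlap for Hspa1a and Hspa1b.

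Among the AP-1 subunits, Jun had the highest tag level, 8561 ± 3056 CPM (SD, n = 37) in microglia and 976 ± 212 CPM in nonmicroglia. Its microglia libraries ran from 3381 to 14300 CPM (median 7625) and its nonmicroglia libraries from 532 to 1598 CPM (median 975), with no overlap. Junb was at 4974 ± 1367 CPM against 354 ± 83.7 CPM, again with no overlap between the lowest microglia library (2489 CPM) and the highest nonmicroglia library (513 CPM). Fos was at 2581 ± 1556 CPM against 293 ± 124 CPM, and its lowest microglia library (690 CPM) was above the highest nonmicroglia library (545 CPM). Jund and Fosb were the least abundant subunits in microglia, at 367 ± 111 CPM and 319 ± 125 CPM, against 77.3 ± 24.9 CPM and 46.3 ± 22.2 CPM in nonmicroglia. A 3′ tag library yields about 1 fragment per transcript, so these levels were not divided by gene length.

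Egr1 stood at 4716 ± 1522 CPM in microglia and 414 ± 117 CPM in nonmicroglia. Dusp1 was at 1626 ± 516 CPM against 179 ± 77.9 CPM, and Ier2 at 495 ± 159 CPM against 63.0 ± 26.3 CPM. Of these 3, Dusp1 was the 1 whose fractions overlapped, by a single pair of libraries: its lowest microglia library was at 389 CPM and its highest nonmicroglia library at 392 CPM. Hspa1a was at 166 ± 195 CPM against 61.9 ± 38.3 CPM and Hspa1b at 105 ± 95.2 CPM against 42.1 ± 27.8 CPM. For both HSP70 genes the ranges of the fractions overlapped widely, from 23.4 to 1112 CPM in microglia and from 4.98 to 159 CPM in nonmicroglia for Hspa1a.

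In edgeR's quasi-likelihood fit of both fractions, with Benjamini-Hochberg adjustment over 18408 genes, all 10 members were called higher in microglia at an adjusted p under 0.05. Of all genes tested, 51.7% were called in this comparison and 22.2% were called higher in microglia. On the log2 scale the fold changes (± SE) were 4.04 ± 0.09 for Junb (adjusted p = 8.13e-65), 3.35 ± 0.08 for Jun (adjusted p = 1.09e-64), 3.24 ± 0.19 for Fos, 3.02 ± 0.18 for Fosb and 2.46 ± 0.11 for Jund. They were 3.73 ± 0.11 for Egr1, 3.44 ± 0.15 for Dusp1 and 3.23 ± 0.12 for Ier2. The HSP70 genes had the smallest differences, 1.47 ± 0.27 for Hspa1a (adjusted p = 5.63e-06) and 1.44 ± 0.26 for Hspa1b (adjusted p = 3.96e-06). The median over the members was 3.24, beside -0.33 over all genes tested. This fit had no term for the mouse, although each mouse gave both pools. A paired limma test on the difference within each mouse, added after seeing the data, also called all 10 members (10924 of 18408 genes called). There Junb was at 3.95 ± 0.12 (limma, adjusted p = 7.39e-22) and Jun at 3.28 ± 0.11 (adjusted p = 1.05e-20).

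Within single animals, each of the 8 immediate early genes was higher in microglia in 37 of 37 mice. The median ratio of the fractions ran from 4.41 for Jund to 14.6 for Junb, with 8.11 for Jun, 7.91 for Fos, 10.6 for Egr1 and 9.48 for Dusp1. Hspa1b was higher in microglia in 36 of 37 mice and Hspa1a in 29 of 37, with median ratios of 2.18 and 2.25. In these bulk pools, fewer cells of a type and less RNA per cell cannot be told apart.

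Other genes of the same pathways were compared in the same fit. Of all 18408 genes in it, 4079 were called higher and 5433 lower in microglia. Among 38 further immediate early genes, 28 were higher and 5 were lower in the microglia fraction, with a median log2 fold change of 2.43. The higher ones included Nfkbiz, a regulator of NF-kB signalling (4.99 ± 0.15), and Zfp36, an RNA-decay factor for cytokine messages (4.99 ± 0.13). Atf3, a stress-induced partner of Jun, was also among them (4.91 ± 0.12). Arc, a neuronal activity gene, was lower (-5.66 ± 0.49). Of 29 other heat shock genes and regulators, 6 were higher and 14 lower in microglia, with a median of -0.23. The 4 with the largest differences were small chaperones and a testis-type HSP70 that were lower in microglia: Cryab (-5.53 ± 0.25), Hspb8 (-4.88 ± 0.22), Hspa2 (-4.15 ± 0.40) and Hspb1 (-3.85 ± 0.42). All 6 cytokine genes known to be induced when microglia are handled were higher in microglia, among them Il1a (6.23 ± 0.19) and Ccl3 (6.11 ± 0.17).

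On cuprizone, Jun fell in the microglia fraction after both 5 and 12 weeks, and edgeR called no other member. DESeq2 also called Hspa1a at 12 weeks. At 5 weeks the mean level of Jun was 6512 ± 1652 CPM (SD, n = 9) on cuprizone and 11520 ± 2719 CPM (n = 9) on control diet. At 12 weeks it was 5999 ± 957 CPM (n = 10) on cuprizone and 10500 ± 1972 CPM (n = 9) on control diet. At 12 weeks every cuprizone library (4179 to 7625 CPM) was below every control library (8182 to 13210 CPM), while at 5 weeks the ranges (3381 to 9621 CPM and 6725 to 14300 CPM) overlapped.

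**Figure D2:**
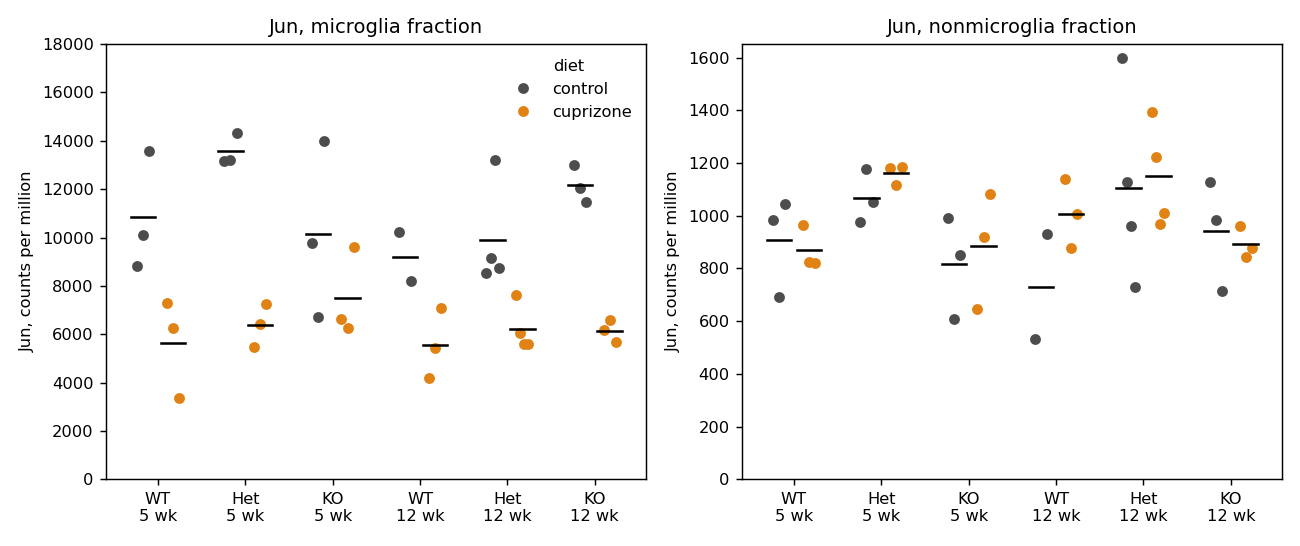
Jun in CPM by genotype, weeks on diet (wk) and diet, with 1 point per library and a bar at each group mean, in the microglia (left) and nonmicroglia (right) fractions, which have different scales. In microglia the cuprizone points lie below the control points in each genotype and time except the KO mice at 5 weeks, where they overlap.

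In WT mice at 5 weeks, Jun was at 8803, 10100 and 13580 CPM in the control microglia libraries and at 3381, 6246 and 7284 CPM on cuprizone. In Het mice at 5 weeks it was at 13180, 13220 and 14300 CPM on control diet and at 5478, 6439 and 7253 CPM on cuprizone. In KO mice at 5 weeks it was at 6725, 9761 and 13980 CPM on control diet and at 6278, 6631 and 9621 CPM on cuprizone, the 1 setting in which the groups overlapped. At 12 weeks WT mice had 8182 and 10220 CPM on control diet and 4179, 5449 and 7095 CPM on cuprizone. Het mice at 12 weeks had 8517, 8746, 9149 and 13210 CPM on control diet and 5586, 5612, 6040 and 7625 CPM on cuprizone. KO mice at 12 weeks had 11460, 12040 and 12990 CPM on control diet and 5671, 6159 and 6574 CPM on cuprizone. The cuprizone libraries were thus below all control libraries of the same genotype and week in 5 of 6 settings. Groups this small can separate by chance, and the share of all genes that separated in this way is not given here. The count for Jun therefore has no background beside it, and neither do the separations given below for other members.

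Averaged over the genotypes, the log2 fold change of Jun in microglia was -0.81 ± 0.13 at 5 weeks (edgeR, adjusted p = 3.09e-05 over 14087 genes) and -0.71 ± 0.13 at 12 weeks (adjusted p = 0.000146), or 0.571 and 0.61 times the control level. At 5 weeks 1.6% of all genes were called and 0.27% were called lower, and Jun had the smallest p of the 38 genes that fell. At 12 weeks 2.95% were called and 0.909% were called lower, and Jun ranked 12th by p among 128. Many of those genes fell further than Jun: 16 of 38 and 90 of 128. The difference between the 5-week and 12-week effects was 0.10 ± 0.18 (adjusted p = 1).

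Taken genotype by genotype, with at most 4 mice a group, the call held for Het mice at 5 weeks. There the log2 fold change of Jun was -1.13 ± 0.22 (edgeR, adjusted p = 0.00492; 0.277% of all genes called). It was -0.91 ± 0.22 in WT mice at 5 weeks (adjusted p = 0.0681; 0.142% called) and -0.39 ± 0.22 in KO mice at 5 weeks (adjusted p = 0.766; 0.0568% called). At 12 weeks it was -0.57 ± 0.25 in WT (adjusted p = 0.369; 0.958% called), -0.55 ± 0.19 in Het (adjusted p = 0.128; 2.55% called) and -1.02 ± 0.22 in KO mice (adjusted p = 0.0669; 0.0284% called). In the 5 settings where edgeR called 0 of 10 members, 3, 0, 4, 4 and 3 members had an unadjusted p under 0.05 (WT and KO at 5 weeks, then WT, Het and KO at 12 weeks). The calls in the same order were 1, 0, 0, 0 and 1 by DESeq2 and 1, 0, 0, 1 and 0 by limma. The effect of cuprizone on Jun in KO minus that in WT mice was 0.52 ± 0.31 at 5 weeks (95% interval -0.09 to 1.14) and -0.46 ± 0.33 at 12 weeks (95% interval -1.11 to 0.20), with adjusted p of 1 and 0.67, so neither was called. The same difference between Het and WT mice was not tested.

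In the nonmicroglia fraction Jun did not pass the test on either diet interval. It was at 971 ± 186 CPM (n = 9) on cuprizone and 931 ± 181 CPM (n = 9) on control diet at 5 weeks, and at 1030 ± 174 CPM (n = 10) and 967 ± 309 CPM (n = 9) at 12 weeks. The log2 fold changes were 0.03 ± 0.14 and 0.13 ± 0.14 (edgeR, adjusted p = 1 and 0.95). The diet effect in microglia minus that in nonmicroglia was -0.84 ± 0.19 at 5 weeks (adjusted p = 0.0137; 0.429% of all genes called) and -0.88 ± 0.19 at 12 weeks (adjusted p = 0.0046; 0.799% called). Both pools came from the same mice, and a paired test on the difference within each animal, with its replicate block chosen after seeing the data, gave similar sizes for Jun but no call: -0.86 ± 0.26 at 5 weeks (limma, adjusted p = 0.256) and -0.90 ± 0.26 at 12 weeks (adjusted p = 0.149). edgeR with the animal as a replicate block called 3 members at 12 weeks, Jun, Egr1 (-0.70, adjusted p = 0.045) and Fos (-0.82, adjusted p = 0.0387), but that fit gave every gene the same trend of spread (infinite prior degrees of freedom), so the spread of Egr1 and Fos themselves did not enter. In the paired limma test Egr1 and Fos had adjusted p of 0.337 and 0.612. That test called 26 of all 18408 genes at 5 weeks and 101 at 12 weeks. The 12-week call for Jun also rested on WT control mouse 1932, whose nonmicroglia library had the lowest Jun level (532 CPM): without it the difference was -0.78 (adjusted p = 0.0668). limma without pairing called neither time (sizes of -1.03 and -0.77). Of the related genes, edgeR called Gadd45b (-2.32 ± 0.49) and Klf10 (-2.03 ± 0.49) for the same difference at 12 weeks.

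Other measures moved with cuprizone in the same microglia libraries. The summed level of the 8 microglia markers was 25550 to 39480 CPM on control diet and 20590 to 37930 CPM on cuprizone at 5 weeks, and 26110 to 33870 CPM and 15490 to 26420 CPM at 12 weeks, with 2 and 5 of the 8 called lower. Mitochondrially encoded genes took 1.95 to 2.71% of counts on control diet and 2.70 to 4.65% on cuprizone at 5 weeks, and 1.49 to 3.27% and 1.72 to 4.57% at 12 weeks. Neutrophil markers overlapped between the diets, at 120 to 8077 CPM and 383 to 3607 CPM at 5 weeks and 110 to 3612 CPM and 106 to 6512 CPM at 12 weeks. Border macrophage markers were at 860 to 1648 CPM and 533 to 1278 CPM at 5 weeks and at 441 to 1267 CPM and 273 to 1111 CPM at 12 weeks, with 1 of 8 called lower at each. RNA integrity numbers, labelled for only some microglia libraries, were 8.7 to 9.7 (7 control) and 8.7 to 9.9 (8 cuprizone) at 5 weeks, and 8.1 to 9.6 (3 control) and 7.3 to 8.1 (3 cuprizone) at 12 weeks. The part of these measures in the fall of Jun was not tested.

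**Figure D3:**
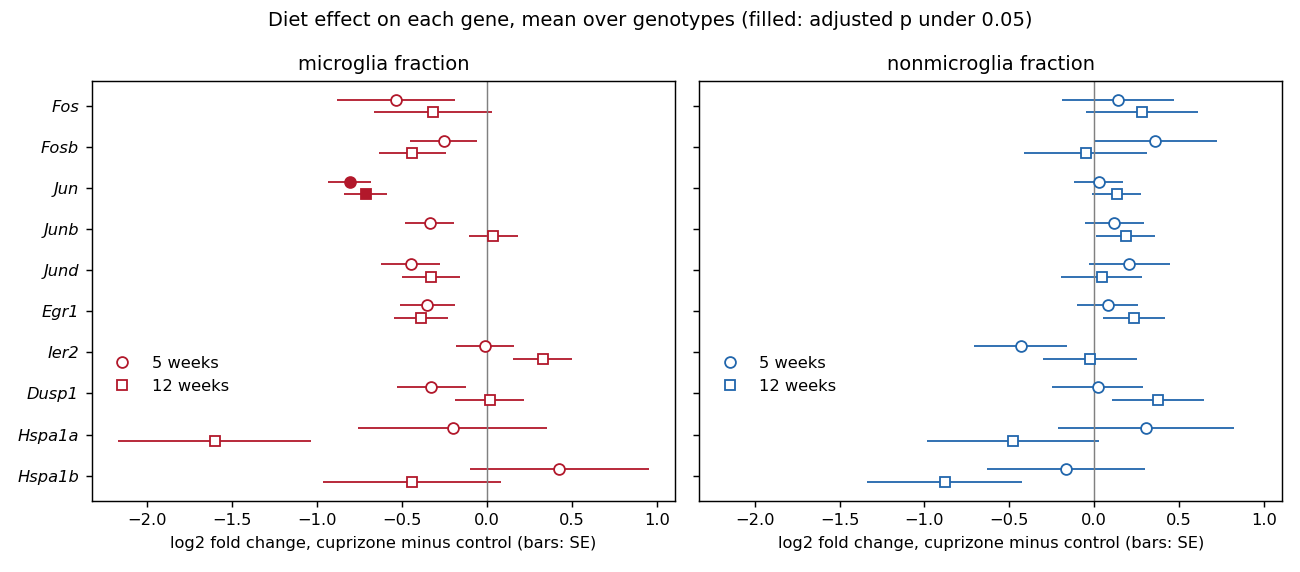
Log2 fold change (cuprizone minus control, mean over the 3 genotypes) of each gene with its SE, at 5 weeks (circles) and 12 weeks (squares), in the microglia (left) and nonmicroglia (right) fractions. The filled points, Jun in microglia at both times, are those with an adjusted p under 0.05.

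The other AP-1 subunits had smaller or less certain differences in microglia. At 5 weeks the log2 fold changes were -0.53 ± 0.35 for Fos, -0.25 ± 0.20 for Fosb, -0.34 ± 0.14 for Junb and -0.45 ± 0.17 for Jund, with adjusted p from 0.219 to 0.739. At 12 weeks they were -0.32 ± 0.35 for Fos, -0.44 ± 0.20 for Fosb, 0.04 ± 0.14 for Junb and -0.33 ± 0.17 for Jund, with adjusted p from 0.264 to 1. Fos varied several-fold among mice of 1 group: KO control mice at 5 weeks had 816 and 1154 CPM in the females and 6876 CPM in the male, mouse 9470. Sex and mouse cannot be told apart in that group. Without KO control mouse 9470 the log2 fold change of Fos at 5 weeks was -0.16. Het mice at 5 weeks were the 1 setting where Fos did not overlap between diets, with 4137, 5486 and 6111 CPM on control diet and 704, 2749 and 2783 CPM on cuprizone.

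Egr1 had log2 fold changes of -0.35 ± 0.16 at 5 weeks and -0.39 ± 0.16 at 12 weeks in microglia and did not pass the test (edgeR, adjusted p = 0.363 and 0.211). Its mean was 5805 ± 1735 CPM on control diet and 4379 ± 1211 CPM on cuprizone at 5 weeks (n = 9 each). At 12 weeks it was 5249 ± 1207 CPM (n = 9) and 3558 ± 958 CPM (n = 10). The diets did not overlap in Het mice at both times and in KO mice at 12 weeks. Ier2 differed by -0.01 ± 0.17 and 0.33 ± 0.17, and Dusp1 by -0.33 ± 0.21 and 0.02 ± 0.21, at 5 and 12 weeks. In WT mice Dusp1 lay below the control range on cuprizone at 5 weeks (1480 to 1861 against 1869 to 2150 CPM) and above it at 12 weeks (1766 to 2324 against 1054 to 1271 CPM). Junb in Het mice at 12 weeks was at 3268, 3799, 4286 and 5732 CPM on control diet and at 5447, 5609, 5788 and 8471 CPM on cuprizone.

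Hspa1a was at 281 ± 358 CPM (n = 9) on control diet and 84.7 ± 63.8 CPM (n = 10) on cuprizone at 12 weeks in microglia. The control mean was carried by 1 Het library at 1112 CPM and 1 KO library at 621 CPM, and the median was 119 CPM on control diet and 61.1 CPM on cuprizone. The log2 fold change was -1.60 ± 0.57 (edgeR, adjusted p = 0.149), while DESeq2 called it (-1.62, adjusted p = 0.038). At 5 weeks it was -0.20 ± 0.56, with 83.0 to 298 CPM on control diet and 23.4 to 366 CPM on cuprizone. Hspa1b differed by 0.43 ± 0.53 at 5 weeks and by -0.44 ± 0.52 at 12 weeks, with adjusted p of 0.911 and 0.834.

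In the nonmicroglia fraction edgeR called 0 of 10 members at 5 weeks, where 0.443% of all 16915 genes were called, and 0 of 10 at 12 weeks, where 0.497% were called. The unadjusted p was above 0.05 for every member, and neither DESeq2 nor limma made a call. The log2 fold changes ran from -0.43 (Ier2) to 0.36 (Fosb) at 5 weeks and from -0.88 (Hspa1b) to 0.37 (Dusp1) at 12 weeks.

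Related genes that passed the test went in both directions in microglia. Of all 14087 genes tested there, 188 were called higher and 38 lower at 5 weeks, and 287 higher and 128 lower at 12 weeks. Of 37 other immediate early genes, 2 rose and 2 fell at 5 weeks, and 1 rose and 3 fell at 12 weeks, with medians of -0.11 and -0.02 beside 0.00 and 0.01 for all genes. Gadd45b, a stress-induced gene, rose by 1.56 ± 0.22 and 0.88 ± 0.22 on the log2 scale, and Dusp2, a MAP kinase phosphatase like Dusp1, rose by 1.35 ± 0.28 at 5 weeks. Klf4 changed by -0.87 ± 0.19 and -1.20 ± 0.19, Ier5 by -0.59 ± 0.13 and -0.58 ± 0.13, and Klf2 by -0.79 ± 0.21 at 12 weeks. Klf4 and Klf2 are Krüppel-like transcription factors, and Ier5 is a relative of Ier2. Of 29 other heat shock genes, Hspe1 rose at 12 weeks in the mean over genotypes (1.61 ± 0.29, edgeR adjusted p = 0.000135). It encodes the partner of the mitochondrial chaperonin. Its value was 4.29 ± 0.64 in WT mice and 1.07 ± 0.40 in Het mice, where it was not called (edgeR, adjusted p = 0.169). In KO mice at 12 weeks no gene of this list was called. The diet effect on Hspe1 differed between KO and WT mice, as given with the Trem2 comparison. At 5 weeks Hspe1 had the smallest p of the list (0.68 ± 0.26). Of the 6 cytokine genes, 3 rose at each time: Tnf (1.10 ± 0.22), Il1b (0.82 ± 0.17) and Ccl3 (0.72 ± 0.18) at 5 weeks, and Cxcl2 (1.07 ± 0.22), Tnf (0.77 ± 0.22) and Il1b (0.59 ± 0.17) at 12 weeks. These are means over genotypes: Cxcl2 rose by 2.52 ± 0.46 in WT and 1.51 ± 0.33 in Het mice at 12 weeks, and its diet effect differed between KO and WT mice, as given with the Trem2 comparison. In nonmicroglia Gadd45b was the 1 called gene of the 3 lists, and it rose by 2.54 ± 0.43 and 3.20 ± 0.48.

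Loss of Trem2 did not move any member past the test. For KO minus WT mice, averaged over diets and weeks, edgeR called 0 of 10 members in microglia (0.461% of all genes called) and 0 of 10 in nonmicroglia (0% called). In microglia the log2 fold changes ran from -0.33 ± 0.15 for Ier2, the 1 member with an unadjusted p under 0.05 (adjusted p = 0.6), to 0.56 ± 0.51 for Hspa1a, and in nonmicroglia no member had an unadjusted p under 0.05. Of the other immediate early and cytokine genes, Gadd45b (-0.84 ± 0.20) and Cxcl2 (-0.81 ± 0.19) fell in KO microglia in the mean over diets and weeks. Jun differed by 0.23 ± 0.11 in microglia (95% interval 0.00 to 0.45) and by 0.04 ± 0.13 in nonmicroglia. For Het minus WT mice 0 of 10 were called in either fraction (0.0071% of all genes called in microglia and 0% in nonmicroglia). There Jun was the 1 member with an unadjusted p under 0.05 in each fraction, at 0.29 ± 0.11 (adjusted p = 0.473) and 0.40 ± 0.13 (adjusted p = 0.623). Averaged over the weeks, the effect of diet in KO minus that in WT mice was called for 0 of 10 members in microglia (0.0284% of all genes called) and in nonmicroglia (0% called), and all unadjusted p were above 0.05. In none of these 6 comparisons did DESeq2 or limma call a member.

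For 7 of the 10 members the average covers values of opposite sign in microglia at the 2 times. At 5 weeks the difference of the diet effect, KO minus WT, was above 0 for all 10 members, with a median of 0.43 beside 0.00 for all genes. The members share libraries, so they are not 10 separate results. KO control mouse 945 was below its group and sex mean for each member in microglia. It had 389 CPM of Dusp1, beside 1691 and 2238 CPM, and 195 CPM of Ier2, beside 467 and 468 CPM. Its part in the 5-week values was not tested. At 12 weeks it was below 0 for 7 of 10, with a median of -0.61 beside -0.13 for all genes. edgeR, DESeq2 and limma called 0 of 10 members at each time, where edgeR called 0.0071% of all genes at 5 weeks and 0.0284% at 12 weeks. All unadjusted p were above 0.05 at 5 weeks, and at 12 weeks 4 members had one under 0.05: Ier2 (-1.30 ± 0.46, edgeR adjusted p = 0.261), Egr1 (-1.17 ± 0.42, adjusted p = 0.282), Dusp1 (-1.28 ± 0.54, adjusted p = 0.392) and Junb (-0.77 ± 0.38, adjusted p = 0.461). The WT control group at 12 weeks had 2 mice.

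Related genes passed this test at 12 weeks. The diet effect in KO minus that in WT microglia was -4.83 ± 0.77 for Hspe1 (edgeR, adjusted p = 0.000827) and -3.33 ± 0.59 for Cxcl2 (adjusted p = 0.00416). For Hspe1 it was also called over both weeks (-2.97 ± 0.50, edgeR adjusted p = 0.00117). On control diet at 12 weeks KO minus WT mice differed by 3.06 ± 0.62 for Hspe1 (edgeR, adjusted p = 0.0418). Het minus WT mice differed there by 2.79 ± 0.60 (edgeR, adjusted p = 0.146). Both of these comparisons used the same 2 WT control mice. On cuprizone at 12 weeks KO minus WT mice differed by -2.41 ± 0.39 for Cxcl2 (adjusted p = 0.000214) and by -1.59 ± 0.38 for Gadd45b (adjusted p = 0.0331).

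Mice fed for 12 rather than 5 weeks were also compared, although cohort and time cannot be told apart. In microglia edgeR called 0 of 10 members on control diet (0.0071% of all genes called) and 0 of 10 on cuprizone (0.341% called). On control diet Fos was the 1 member with an unadjusted p under 0.05 (-0.76 ± 0.36, adjusted p = 0.613), and without KO control mouse 9470 its value was -0.41. On cuprizone 3 members had one, Junb (0.29 ± 0.14), Jund (0.39 ± 0.17) and Ier2 (0.34 ± 0.17), with adjusted p from 0.385 to 0.467. Of the related genes Btg1, an antiproliferative gene, was called higher at 12 weeks on cuprizone (0.89 ± 0.18, edgeR adjusted p = 0.00602). In nonmicroglia 0 of 10 were called on control diet (0.236% called) and on cuprizone (0.964% called), with every unadjusted p above 0.05. Neither DESeq2 nor limma made a call in these 4 comparisons.

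Between the sexes, edgeR called 0 of 10 members in microglia (0.142% of all genes called) and 0 of 10 in nonmicroglia (0.0414% called), and so did DESeq2 and limma. In microglia 3 members had an unadjusted p under 0.05, all higher in males: Fos (0.86 ± 0.26, adjusted p = 0.236), Junb (0.40 ± 0.11, adjusted p = 0.122) and Jun (0.36 ± 0.10, adjusted p = 0.103). Fos was at a median of 3542 CPM in 12 male and 1992 CPM in 25 female libraries, and the ranges overlapped. Without Het control mouse 944, Jun (adjusted p = 0.0329) and Junb (adjusted p = 0.045) were called by edgeR, and without KO control mouse 8635 Junb was (adjusted p = 0.0482). Of the related genes Btg2, a relative of Btg1, was called higher in males (0.47 ± 0.10, edgeR adjusted p = 0.0271). In nonmicroglia 1 member, Egr1, had an unadjusted p under 0.05 (0.32 ± 0.13, adjusted p = 1).

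Mice of the same group differed from each other much more for some members than for others. After group and sex means were removed, the SD of log2 CPM in microglia was 1.16 for Hspa1a, 1.09 for Hspa1b and 0.76 for Fos. These exceeded the SD of 99.7%, 99.2% and 97.1% of the genes within 0.5 log2 CPM of the same level. Those sets held 1123, 1395 and 34 genes, with the member itself counted in each. Jun was the steadiest member in microglia, with an SD of 0.26, the lowest of the 6 genes at its level, itself included. Junb (0.32), Jund (0.38), Ier2 (0.42) and Egr1 (0.42) lay between. In nonmicroglia Hspa1a (1.20) and Hspa1b (1.10) were again the most variable members, and Jun (0.31) the least.

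The same deviations described which members moved together from library to library. Among the 28 pairs of immediate early genes the median Pearson r over 37 libraries was 0.41 in microglia and 0.348 in nonmicroglia, beside 0.0137 and 0.00698 over all pairs of genes with a mean log2 CPM of 3 or more. Hspa1a and Hspa1b correlated at 0.847 in microglia and 0.409 in nonmicroglia. Pairs of 1 immediate early and 1 HSP70 gene had medians of -0.0272 and 0.109. These points share libraries and depth, and Hspa1a and Hspa1b can share reads, so the values are a description. The 5 genes whose deviations were most like the mean deviation of the 10 members in microglia were Ppp1r15a (r = 0.842), Copb1 (0.807), Ccrl2 (0.794), Klf2 (0.789) and Zfp36 (0.761), among 7517 genes over 37 libraries. In nonmicroglia they were Ssb (0.756), Slc40a1 (0.734), Ppp1r15b (0.697), Slc35f5 (0.693) and Nae1 (0.692), among 8963 genes.

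Both pools of a mouse came from 1 dissociated brain, so the deviations of its microglia and nonmicroglia libraries could be compared. Hspa1b deviated together in the 2 pools (Pearson r = 0.621, permutation p = 3e-05, Spearman rho = 0.677, permutation p = 3e-05, n = 37 mice), and its p passed adjustment over all 7146 genes compared (adjusted p = 0.0204), as did that of 36 genes in all. The permutations treated the 37 deviations as exchangeable. Removing group and sex means ties them to each other and leaves 24 degrees of freedom, so every permutation p given here can be too small. Without the 2 mice farthest from the median r was 0.619, and it was 0.711 in the 18 mice at 5 weeks and 0.569 in the 19 mice at 12 weeks. Egr1 had r = 0.508 (permutation p = 0.00126, rho = 0.484, permutation p = 0.00268, adjusted p = 0.095) and Hspa1a r = 0.474 (permutation p = 0.00341, rho = 0.431, permutation p = 0.00795, adjusted p = 0.148), and both failed the adjustment. Without the 2 farthest mice they were at 0.46 and 0.406, and within the weeks Egr1 was at 0.744 and 0.402 and Hspa1a at 0.253 and 0.588.

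Fosb (r = 0.351, permutation p = 0.0331, rho = 0.376, permutation p = 0.0227) and Dusp1 (r = 0.332, permutation p = 0.0445, rho = 0.46, permutation p = 0.00435) also failed the adjustment (adjusted p = 0.329 and 0.373). Ier2, Fos, Jun, Jund and Junb had r of 0.277, 0.175, 0.135, 0.102 and 0.0734. Over all 7146 genes the median r was 0.0229, the 90th percentile 0.303, and 1.05% of genes were above 0.5.

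**Figure D4:**
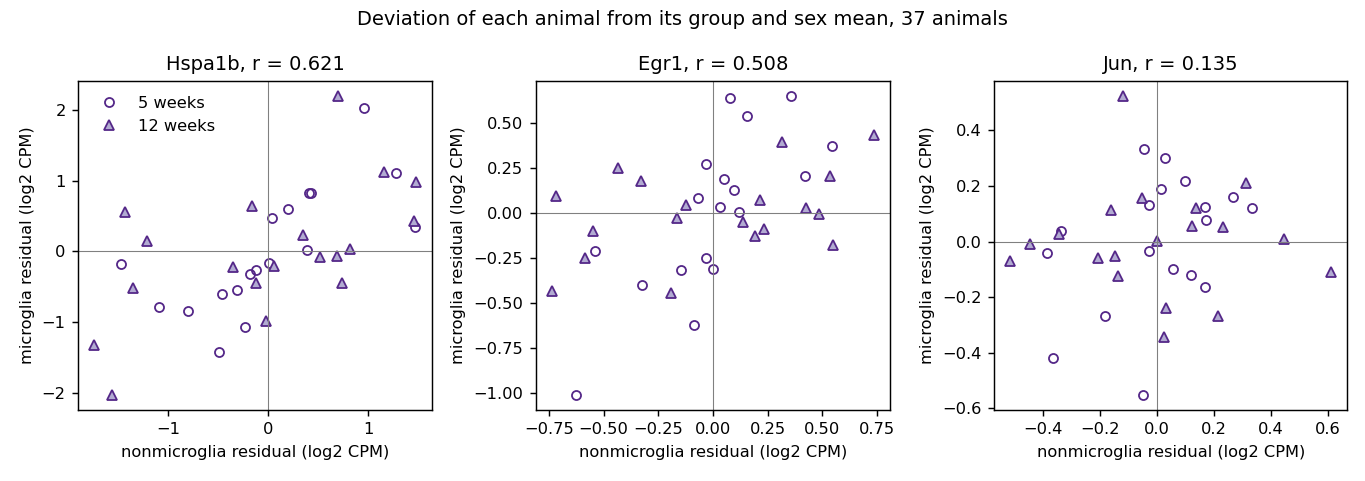
Deviation of each mouse from its group and sex mean in log2 CPM, microglia library against nonmicroglia library, for Hspa1b, Egr1 and Jun (37 mice; circles 5 weeks, triangles 12 weeks). Points for Hspa1b follow a rising line (r = 0.621), those for Egr1 less closely (r = 0.508), and those for Jun show little shared deviation (r = 0.135).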

How the data were processed

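RNA of sorted microglia and nonmicroglia pools of 37 mice was measured with a 3′ tag kit (QuantSeq FWD, low input). The values are read counts per gene as deposited by the authors, who, per the submitters' processing notes, used FastQC 0.11.5, STAR, MultiQC, R 3.4.3 and GRCm38.p6. No source used here states the counter, the annotation, the strand setting or whether molecular identifiers were used. The table had 49912 genes and 0 rows without a gene name.

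Counts were tested with edgeR 4.0.16 (robust quasi-likelihood, TMM, filterByExpr with a minimum count of 10, Benjamini-Hochberg over all genes tested) in R 4.3.3, with 12 group means and sex in each fraction, and with 24 group means and sex over both. Levels are CPM, each count divided by its library total and multiplied by 1000000. Alternatives were DESeq2 1.42.0, DESeq2's size factors in edgeR, limma 3.58.1 with voom quality weights, no filter, the noncoding share as covariate, no sex term, the animal as replicate block (in edgeR and, added after seeing the data, as within-animal log2 differences in limma), and leaving out each of 37 libraries per fraction or, over both fractions, 16 of the 37 animals drawn at random. The edgeR fit within each fraction and the paired limma test were run on simulated data with known changes. The edgeR fit over both fractions and the other alternatives were not. The animal number pairs the 2 pools of a mouse, and the median correlation of their deviations over 7146 genes was 0.0229. Deviations are log2 CPM (prior count of 2) minus group and sex means, and permutation tests were two-sided with 100000 resamples.

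Members and gene lists were chosen with earlier results of these data known. All 10 members were named in every comparison. Of each list, the rule took per comparison up to 4 called genes with the largest change, otherwise the gene with the smallest p (the text gives part of the genes so taken), and per fraction the 5 genes most like the members, from those with a mean log2 CPM of at least 3, without predicted genes or genes on X, Y or the mitochondrial genome.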

Additional observations from a re-analysis of the deposited data

Results flagged for a closer look

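In 40 groups of 4 mice tested (each gene, fraction and diet of the Het mice at 12 weeks), 6 had a library far from the other 3. For 1 group taken alone chance gives about 1 in 20. The 40 groups reuse the same mice, and members moved together (Junb and Jund, r = 0.765 in microglia). They are not separate trials, so the count of 6 cannot be set against that rate. All 6 were in the microglia fraction. Among the control mice, mouse 7674 had a low Fos level of 816 CPM, beside 3340 to 3740 CPM in the others. Mouse 943 had a high Fosb level of 794 CPM, beside 289 to 363 CPM. Mouse 944 had both a high Jun level of 13200 CPM, beside 8520 to 9150 CPM, and a high Hspa1a level of 1110 CPM, beside 57.6 to 199 CPM. Among the cuprizone mice, mouse 1040 had a high Junb level of 8470 CPM, beside 5450 to 5790 CPM, and a high Jund level of 621 CPM, beside 342 to 372 CPM. Mice 943 and 1040 were the only males of their groups, each beside 3 females. The rule for far libraries had no term for sex. For Fosb, Junb and Jund the mouse and its sex therefore cannot be told apart here.

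The effect of cuprizone on Jun differed between the fractions by the test of the difference itself, with -0.84 at 5 weeks and -0.88 at 12 weeks on the log2 scale (microglia minus nonmicroglia). It was not called in the paired test on within-animal differences (limma, adjusted p = 0.256 and 0.149).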

How the results depend on the processing

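All 10 members were called higher in microglia under every alternative run except with the noncoding share as covariate, where Hspa1b had an adjusted p of 0.0582. Jun fell on cuprizone in microglia under every alternative run and passed the threshold in each: leaving out each library gave -0.862 to -0.721 at 5 weeks (highest adjusted p 0.000286) and -0.755 to -0.625 at 12 weeks (highest 0.00182). The count of members called moved in these cases. For the difference of the diet effect between fractions, 1 member was called at each time, and limma called 0 at 12 weeks and 0 at 5 weeks, both without pairing and with the replicate block as within-animal differences. Without pairing the adjusted p of Jun was 0.941 and 0.888, and its voom weights ran from 15.1 to 3.06e+08. At 12 weeks 2 were called with no filter and 3 with the replicate block in edgeR, and leaving out animals gave 0 to 1. In microglia, with no filter on low counts, 2 were called for diet at 5 weeks and 3 at 12 weeks, 1 for 12 against 5 weeks on control diet, 2 on cuprizone, 1 for Het against WT and 3 between the sexes. DESeq2 called 2 for diet at 12 weeks. The share of all genes called is not given here for DESeq2, unpaired limma, the unfiltered fit or the edgeR block. Their counts of members therefore have no background beside them. Between the sexes, leaving out single libraries gave 0 to 2 calls: 2 (Jun, adjusted p = 0.0329, and Junb, 0.045) without Het control mouse 944 and 1 (Junb, 0.0482) without KO control mouse 8635. The r of Jund across the fractions was -0.0144 with only group means removed. With no filter and with the block in edgeR the prior degrees of freedom were infinite for all genes, against 0.414 for Hspa1a and 0.426 for Fos in the filtered microglia fit, so a gene's own spread did not enter there. Otherwise the cause was not tested. The replicate block changed no other count of calls. Groups of 2 to 4 mice limit the comparisons within 1 genotype, and low counts of Hspa1a and Hspa1b (from 7 and 12 in nonmicroglia libraries) limit those genes.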
